A study of Canis lupus familiaris with 6 samples.

Results

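Amacrine cells are the inhibitory interneurons of the inner retina. In single-cell libraries of dog neuroretina, 869 of 82153 cell barcodes with at least 300 detected genes were taken as amacrine cells of the host. The cells were chosen by measured UMI counts. A barcode was taken if it held at least 3 UMIs (unique molecular identifiers, counted transcripts) over GAD1, GAD2, SLC32A1, SLC6A9, TFAP2A and TFAP2B, with at least 2 of these genes detected. It also had to hold under 0.3% of its UMIs on the Müller glia genes RLBP1, GLUL and SLC1A3, under 0.1% on the bipolar genes TRPM1, PCP2, GNG13 and CABP5, and fewer than 2 UMIs on the horizontal cell genes ONECUT1, ONECUT2 and LHX1. Because these 16 genes chose the cells, they were left out of every test.

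The study grafted fragments of retinal organoids, grown from the human embryonic stem cell line WA09 CRX-tdTomato and broken up by trituration, under the retina of immunosuppressed dogs whose retinas were normal (genotype labelled normal or wild-type). After 3 days, 1 punch of neuroretina of 5 mm was taken over the graft and 1 punch of 5 mm from an area of retina with no graft. This was done in 3 independent experiments, named LG5, RC726 and RC724, which gives 3 over-graft and 3 control libraries. Both groups therefore came from immunosuppressed, grafted eyes, and the control is a graft-free region rather than an untouched eye. The labels state no age or breed, and they do not say whether each experiment was a separate dog.

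Most amacrine cells release either GABA or glycine. GAD1 and GAD2 make GABA, SLC6A9 is the transporter that lets a cell accumulate glycine, and SLC32A1 loads both transmitters into vesicles. TFAP2A and TFAP2B are transcription factors of the lineage. Many types add a neuropeptide or a second transmitter, and amacrine cells shape the signal that bipolar cells pass to ganglion cells.

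The libraries differed in depth more between experiments than between punches. Median UMIs per amacrine cell were 2391, 11289 and 14264 over the graft and 3150, 9903 and 11730.5 in controls (LG5, RC726, RC724). The 6 libraries held 765204 to 1523706 amacrine UMIs each. LG5 stood apart: it gave 339 over-graft and 201 control amacrine cells, against 81 and 63 in RC726 and 89 and 96 in RC724, and it was counted with an older Cell Ranger version. The estimated share of UMIs from free RNA was 38.3%, 7.89% and 20.3% over the graft and 21.4%, 6.18% and 8.35% in controls, so it was higher over the graft in all 3 experiments. No barcode of an amacrine cell was shared between libraries.

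Most genes of amacrine identity outside the rule were highest in the chosen cells. Of 19 such genes, 15 had a higher level in amacrine cells than in ON bipolar cells and rods in all 3 control libraries. The other 4 did not: SNAP25 and SOX2 were highest in amacrine cells in 0 of 3, and SYT1 and MEIS2 in 1 of 3. PAX6, a transcription factor kept on in mature amacrine cells, was detected in 71.6% of amacrine cells, against 5.02% of 14115 ON bipolar cells and 4.26% of 39371 rods. In the control libraries PAX6 stood at 416, 495 and 513 CPM (UMIs of the gene per 1000000 UMIs summed over the cells) in amacrine cells, 24.6, 4.20 and 39.0 CPM in ON bipolar cells and 39.2, 5.82 and 44.2 CPM in rods. C1QL2, a secreted synaptic protein of the C1q family, had 463, 241 and 236 CPM in control amacrine cells and at most 1.16 CPM in control ON bipolar cells or rods. The levels of PAX6 and C1QL2 did not overlap between the classes. They are given as a description, with no test, because cells picked for some amacrine genes will carry others.

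At the edge of the rule, 191 members held exactly 3 marker UMIs, and 274 barcodes just outside held exactly 2. Of the members at the edge, 108 came from the LG5 over-graft library. Each limit removed cells: 1301 barcodes had 3 marker UMIs, 1165 of these had 2 marker genes, and the glial, bipolar and horizontal limits left 1149, 1073 and 869.

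Amacrine cells made up a small share of every punch. They were 1.42%, 0.700% and 0.915% of barcodes over the graft, against 1.11%, 0.622% and 1.09% in controls (LG5, RC726, RC724). The 95% Wilson intervals were 1.28 to 1.58%, 0.563 to 0.869% and 0.744 to 1.12% over the graft and 0.971 to 1.28%, 0.487 to 0.795% and 0.897 to 1.33% in controls, and they cover counting error only. The over-graft share was the higher in LG5 and RC726 and the lower in RC724. The mean log2 ratio was 0.087 ± 0.31 (SD, n = 3 pairs), with p = 0.75 in a two-sided exact sign-flip permutation test, in which 3 pairs cannot go below 0.25. With barcodes thinned to 1000 UMIs, and shallower ones left out (14441, 10316 and 8469 remained over the graft and 11822, 8924 and 7587 in controls), the shares were 0.630%, 0.0969% and 0.177% over the graft and 0.508%, 0.0896% and 0.145% in controls, higher over the graft in 3 of 3 pairs (exact permutation p = 0.25). Fewer cells of a type and poorer recovery of that type in dissociation cannot be told apart in these shares.

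**Figure D1:**
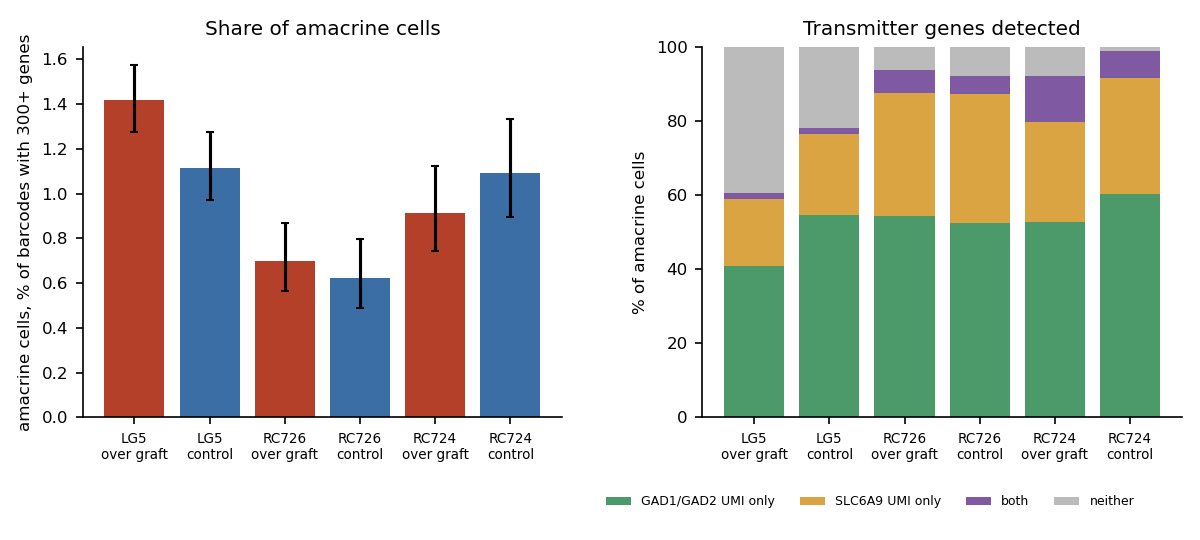
Left, amacrine cells as a percentage of barcodes with at least 300 genes in each of the 6 libraries, with 95% Wilson intervals. Right, the percentage of amacrine cells with a UMI on GAD1 or GAD2 only, on SLC6A9 only, on both or on neither. The over-graft amacrine bar is the higher in LG5 and RC726 and the lower in RC724.

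The transmitter genes split the cells. At 1 or more UMIs, 431 cells (49.6%) held GAD1 or GAD2 without SLC6A9, 208 (23.9%) held SLC6A9 without GAD1 or GAD2, and 34 (3.91%) held both. In the other 196 cells (22.6%) neither was seen, and 134 of these came from the shallow LG5 over-graft library. For the comparison of types, a GABA subset needed at least 2 UMIs on GAD1 and GAD2 and none on SLC6A9, and a glycine subset needed at least 2 UMIs on SLC6A9 and none on GAD1 or GAD2. This gave 273 GABA cells (55, 38 and 41 over the graft, 63, 29 and 47 in controls) and 134 glycine cells (36, 21 and 16 over the graft, 28, 13 and 20 in controls). Glycine cells were 39.6%, 35.6% and 28.1% of the subsets over the graft and 30.8%, 31.0% and 29.9% in controls. The mean difference was 3.88 ± 5.33 percentage points (SD, n = 3 pairs; exact permutation p = 0.5).

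The GABA and glycine cells differed widely outside the genes that defined them. Of 4316 genes tested on the summed UMIs of the 12 subset samples, 695 differed (16.1%), 345 higher in GABA cells (7.99%) and 350 higher in glycine cells (8.11%) (edgeR quasi-likelihood test, 6 libraries each, adjusted p under 0.05). The GABA subset was deeper, with library medians of 2847 to 18359 UMIs per cell against 1679 to 10146.5 in glycine cells. Without the library as a block 159 genes passed, all of them among the 695, and the count was 273 without RC724, 396 without RC726 and 1128 without LG5.

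Of 6 tested genes of GABA metabolism, 3 were higher in GABA cells and none lower, with a list median of 0.79 against -0.026 over all genes tested. SLC6A11, a GABA transporter, averaged 209 ± 48.1 CPM in GABA cells and 42.1 ± 35.4 CPM in glycine cells (SD, n = 6 libraries each), a log2 difference of 2.41 (edgeR, adjusted p = 0.00015). SLC38A1, a glutamine transporter that feeds transmitter synthesis, was higher by 1.13 (adjusted p = 0.00036). Of the 3 tested genes of glycine metabolism, none passed.

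**Figure D2:**
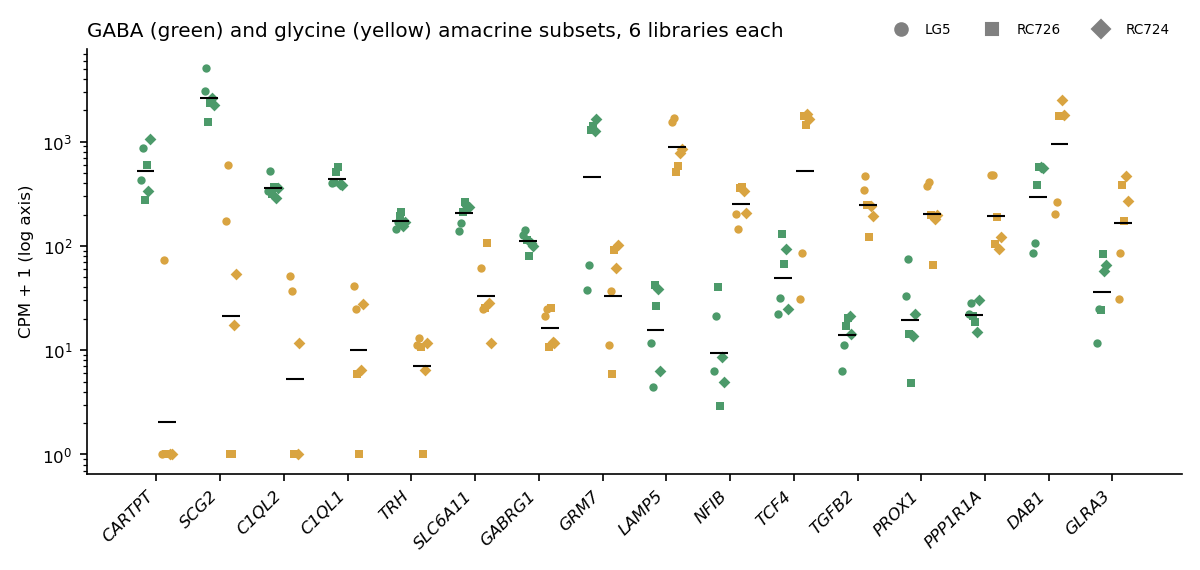
Level of 16 named genes in the GABA (green) and glycine (yellow) subsets, as CPM + 1 on a log axis, with 1 point per library, the experiment shown by its symbol and the geometric mean by a bar. The first 8 genes, CARTPT to GRM7, are higher in GABA cells, and the last 8, LAMP5 to GLRA3, are higher in glycine cells.

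Of 8 tested peptide and hormone genes, 4 (CARTPT, TRH, SCG2 and CHGA) were higher in GABA cells and 1 (NPY) was lower. CARTPT, the precursor of the CART neuropeptide, had 425, 272 and 338 CPM in GABA cells over the graft and 875, 593 and 1061 CPM in GABA cells of controls. In glycine cells it had 71.9 CPM in the LG5 control and no UMI in the other 5 libraries. All 6 GABA values lay above all 6 glycine values, and the log2 difference was 6.21 ± 0.52 (SE; edgeR, adjusted p = 2.4e-06). TRH, the precursor of thyrotropin-releasing hormone, lay between 144 and 211 CPM in GABA cells and between 0 and 11.98 CPM in glycine cells, a difference of 4.31 ± 0.34 (adjusted p = 1.3e-06). It was found in 102 of 273 GABA cells and 6 of 134 glycine cells. SCG2, a secretogranin of peptide vesicles, averaged 2816 ± 1201 CPM in GABA cells and 140 ± 234 CPM in glycine cells (difference 5.18). C1QL1 and C1QL2 differed by 4.76 and 4.78. NPY ran the other way, with a mean of 49.1 CPM in GABA cells and 156 CPM in glycine cells and a difference of -2.34 (adjusted p = 0.022), in 5 of 6 libraries. NPY was found in only 11 of 273 GABA cells and 19 of 134 glycine cells. It did not pass without RC726, without RC724, without the block or in DESeq2.

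Glycine cells had their own set. LAMP5, a membrane protein of vesicles in inhibitory neurons, had 10.6, 40.9 and 38.0 CPM over the graft and 3.39, 25.3 and 5.33 CPM in controls in the GABA subset. In the glycine subset it had 1562, 507 and 771 CPM over the graft and 1689, 578 and 860 CPM in controls. The subsets did not overlap, and the difference was -5.36 (adjusted p = 2.4e-06). TGFB2, a secreted growth factor, averaged 14.1 ± 5.73 CPM in GABA cells and 268 ± 122 CPM in glycine cells, a difference of -4.01 (adjusted p = 1.1e-06). GLRA3, a glycine receptor subunit, averaged 43.6 ± 28.3 and 234 ± 171 CPM (difference -2.54).

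Several transcription factors differed between the subsets. MEIS2 averaged 506 CPM in GABA cells and 65.3 CPM in glycine cells (difference 2.96), and NR4A2 averaged 126 and 21.1 CPM (difference 2.55). BHLHE22 and LMO4 were higher in GABA cells by 1.79 and 1.25. PROX1 averaged 26.3 ± 25.5 CPM in GABA cells and 236 ± 130 CPM in glycine cells (difference -3.43 ± 0.23, adjusted p = 8e-07), NFIB 13.1 and 269 CPM (difference -4.57), and TCF4 60.5 and 1132 CPM (difference -4.23). All 3 tested members of a list of glycinergic subtype genes (PROX1, DAB1, TCF4) were higher in glycine cells. Of 4 tested GABAergic subtype genes, 3 (NR4A2, MEIS2, LMO4) were higher in GABA cells and CALB1, a calcium-binding protein, was lower. TCF4, DAB1 and GRM7 had far lower values in both LG5 libraries than in RC726 and RC724: TCF4 in glycine cells was 30.3 CPM (over the graft) and 83.9 CPM (control) in LG5, against 1766 and 1838 CPM (over the graft) and 1441 and 1634 CPM (control) in RC726 and RC724. The LG5 libraries were counted with Cell Ranger 6.0.2 and the others with 7.0.0 or 7.1.0, and the part of the version in these levels was not tested.

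Some synaptic genes were higher in the GABA subset. Of 22 tested genes of transmitter release, 9 were higher in GABA cells, among them SYN3, CPLX2, RIMS1, NSF, RAB3A, PCLO and RPH3A, and none lower, with a list median of 0.48 against -0.026 over all genes. CPLX2, a complexin that clamps vesicle fusion, averaged 215 ± 74.2 CPM in GABA cells and 45.6 ± 23.1 CPM in glycine cells. KCNC2, a potassium channel of fast-firing neurons, averaged 744 ± 411 and 100.02 ± 63.8 CPM, a difference of 2.83. Among receptors, GABRG1, GABBR2 and GABRA2 (subunits of GABA receptors) were higher in GABA cells and 2 genes, among them GLRA3, higher in glycine cells, of 11 tested. GRM7 and GRIN2A were higher in GABA cells and GRIA1, GRIN2B and GRM8 higher in glycine cells, of 13 tested glutamate receptor genes, where 7.99% and 8.11% of all genes were higher in GABA and in glycine cells. GRIA1 and GRM8 were higher in GABA cells in both LG5 libraries and in glycine cells in the other 4. GRM8 did not pass in 5 of 8 alternatives, GRIA1 in 3 of 8, and GRIN2A and GRIN2B did not pass in 2 of 8 and 2 of 7. None of 38 respiratory chain genes and none of 70 ribosomal protein genes passed.

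Several type markers were too sparse for the filter on low counts. In the fit without that filter 1539 of 22894 genes passed (6.72%). It took the spread of every gene from a common trend, so its p-values do not measure a gene's own spread between libraries. VIP passed in it with 126 UMIs from 1 cell. There the transcription factors EBF1, EBF3, NFIX and NEUROD2 were higher in glycine cells in all 6 libraries and PRDM13 in 4 of 6, with 16 UMIs in the GABA subset and 388 in the glycine subset for EBF1 and 32 and 108 for NEUROD2. LHX9 was seen in 77 of 273 GABA cells and in 0 of 134 glycine cells, which were shallower. A count of 0 allows up to 2.24% of glycine cells with an LHX9 UMI at this depth and sets no limit on cells that express it. TAC1, the precursor of substance P, had 382 UMIs in GABA cells and 4 in glycine cells. TH, the first enzyme of dopamine synthesis, was found in 26 GABA and 2 glycine cells. PENK, the enkephalin precursor, was found in 13 GABA and 36 glycine cells.

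Markers of rare types were detected in few cells. The acetylcholine genes of starburst cells, CHAT and SLC5A7, were detected in 10 and 12 of the 869 cells. VIP was found in 1 cell, with 126 UMIs. SLC6A3, GHRH and NTS were found in 0 of 869, which allows up to 0.345% of cells with a UMI at this depth and does not limit the cells that express them. TNC, a matrix glycoprotein, and GSG1L, a glutamate receptor auxiliary protein, had 480 and 404 UMIs in GABA cells and 0 in glycine cells, which puts them at least 43.8-fold and 36.9-fold higher in GABA cells when the glycine total is set to 3 counts.

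Between the punches, few genes passed the test on all amacrine cells together. Of 11012 genes tested with the experiment as a block, 27 passed (0.245%), 21 higher over the graft (0.191%) and 6 lower (0.0545%) (edgeR quasi-likelihood test, n = 3 pairs, adjusted p under 0.05). Of the 6 genes that fell, 3 were more abundant in amacrine cells than in the library as a whole in all 6 libraries, and of the 21 that rose, 19 were less abundant in all 6. Without the block 0 genes passed and 63 had an unadjusted p under 0.05, against 714 with it. The count was 2 without RC724, 5 without RC726 and 99 without LG5, which held 1, 4 and 24 of the 27 genes. In the GABA subset alone 70 of 8752 genes passed (0.80%), 48 higher over the graft and 22 lower. In the glycine subset alone 3 of 3654 passed (0.0821%).

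CARTPT fell over the graft. It had 286, 168 and 197 CPM in amacrine cells over the graft and 523, 381 and 607 CPM in controls (LG5, RC726, RC724). Every over-graft value lay below every control value, and the log2 change was -1.23 ± 0.17 (SE; edgeR, adjusted p = 0.029). Cells of the GABA subset with a CARTPT UMI numbered 6 of 55, 11 of 38 and 12 of 41 over the graft and 13 of 63, 13 of 29 and 18 of 47 in controls. Its amacrine level was 15.3 to 48.6 times that of the whole library. With free RNA subtracted the change was -1.08 (edgeR, adjusted p = 0.185). CARTPT also missed the threshold without RC726, RC724 or the block, with at most 20% mitochondrial UMIs and with at most 1 rod gene UMI.

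The transcripts of an acetylcholine receptor and a glutamate receptor fell with it. CHRM3, a muscarinic acetylcholine receptor, had 7.23, 107 and 100.4 CPM over the graft and 13.1, 255 and 237 CPM in controls, a change of -1.22 ± 0.16 (adjusted p = 0.027). GRM5, a metabotropic glutamate receptor, had 17.6, 123 and 110.3 CPM over the graft and 23.5, 322 and 247 CPM in controls, a change of -1.17 ± 0.18 (adjusted p = 0.033). Both were lower over the graft in every experiment, with a small gap in LG5. The LG5 values rest on 7 UMIs over the graft and 10 in control for CHRM3, and on 17 and 18 for GRM5. These are too few to settle a direction in LG5. In the GABA subset GRM5 had 5.32, 167 and 184 CPM over the graft and 27.1, 493 and 419 CPM in controls. In the glycine subset, on at most 15 UMIs a library, it had 0, 73.2 and 21.9 CPM over the graft and 0, 0 and 37.1 CPM in controls, so it was higher over the graft in RC726. CHRM3 in glycine cells had 0, 180.5 and 268 CPM over the graft and 11.98, 366 and 271 CPM in controls, about level in RC724. Both lost the call without RC726, without RC724 and in DESeq2, GRM5 also with at most 20% mitochondrial UMIs. No gene passed without the block or with at most 1 rod gene UMI. With free RNA subtracted the changes of CHRM3 and GRM5 were -1.24 and -1.37 (edgeR, adjusted p = 0.084 for each). ATP8, a mitochondrial subunit of ATP synthase, fell by 0.87 on the log2 scale. This fall was not particular to amacrine cells. In the whole library ATP8 changed by -0.789, -0.582 and -0.931 (LG5, RC726, RC724), and it was lower over the graft in ON bipolar cells and rods in every experiment. Its amacrine level was 0.799 to 1.01 times that of the library.

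RASL11A, a small GTPase of the RAS family, was the riser that was more abundant in amacrine cells than in the library, by 1.04 to 4.402 times. It had 31.0, 24.4 and 40.0 CPM over the graft and 9.15, 6.18 and 8.38 CPM in controls, with no overlap and a change of 2.02 ± 0.32 (adjusted p = 0.033). In GABA cells it had 42.5, 24.9 and 65.8 CPM over the graft and 6.79, 7.80 and 10.7 CPM in controls. In glycine cells it had 10.1, 4.88 and 10.9 CPM over the graft and 11.98, 8.14 and 10.6 CPM in controls, values that overlap. It passed in 6 of 13 alternatives and missed the threshold without RC726, without RC724, in DESeq2, with at most 20% mitochondrial UMIs, with at most 1 rod gene UMI, without the block and with free RNA subtracted (adjusted p = 0.185).

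**Figure D3:**
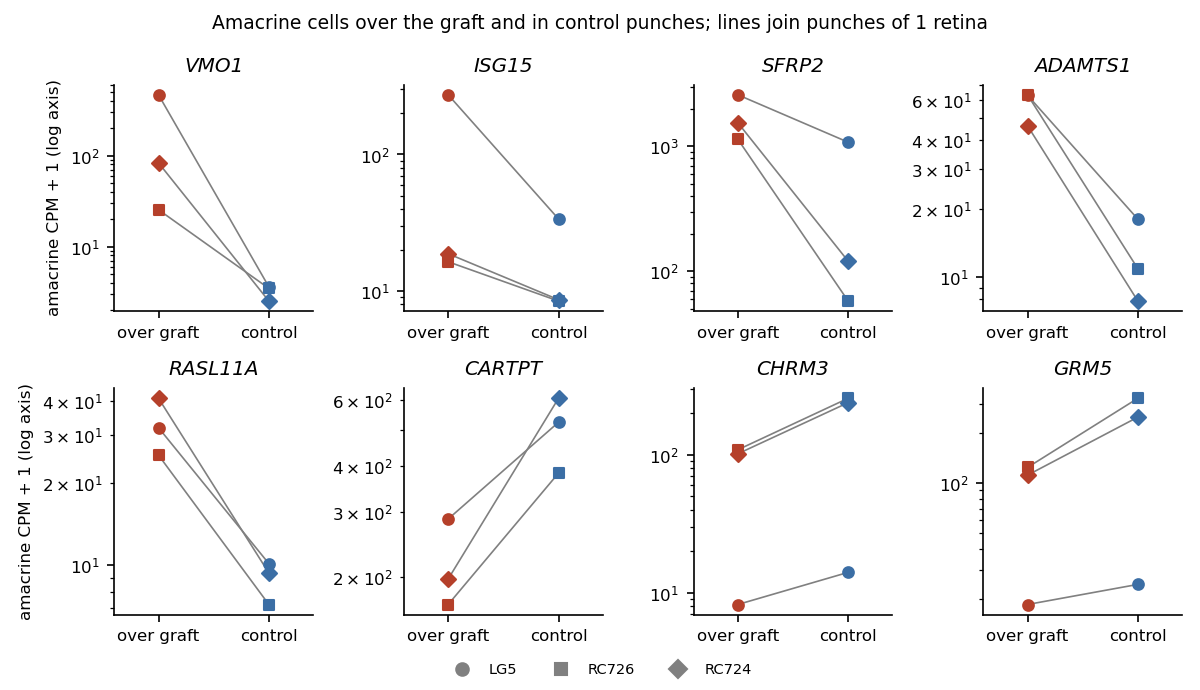
Amacrine level over the graft and in control for 8 genes, as CPM + 1 on a log axis, with a line joining the punches of each experiment. CARTPT, CHRM3 and GRM5 are lower over the graft in all 3 experiments, and VMO1, ISG15, SFRP2, ADAMTS1 and RASL11A are higher in all 3. The LG5 points of CHRM3 and GRM5 rest on few UMIs (7 and 17 over the graft, 10 and 18 in control).

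Among the 27 genes the largest rise was that of VMO1, a secreted protein related to an egg vitelline membrane protein. It had 463, 24.4 and 82.0 CPM over the graft and 2.61, 2.47 and 1.52 CPM in controls, a change of 6.18 ± 0.41 (adjusted p = 0.00011). It passed in 10 of the 11 alternatives that gave it a value and failed without the block. With free RNA subtracted, and with at most 1 rod gene UMI, it was not among the genes tested. Its whole-library levels were 1294, 207 and 263 CPM over the graft and 10.4, 17.3 and 3.54 CPM in controls, so amacrine cells held less of it than the library in all 6.

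Most other risers were also below their library level. SFRP2, a secreted Wnt regulator, had 2579, 1138 and 1542 CPM over the graft and 1077, 56.9 and 119.5 CPM in controls in amacrine cells, against 12546, 8280 and 11809 CPM over the graft and 11406, 5427 and 11738 CPM in controls in the whole library. ADAMTS1, a secreted metalloprotease, rose by 2.38 ± 0.27 (adjusted p = 0.011) and CP, the ferroxidase ceruloplasmin, by 2.33 ± 0.27 (adjusted p = 0.011). NPVF, HK2, CRB1, APOC1, TCF7L2 and SFRP1 rose by 3.73, 2.63, 2.07, 1.97, 1.96 and 1.83. Of the 21 risers, 19 were below the library level in all 6 libraries, with a median amacrine-to-library ratio of 0.16, and 17 were higher over the graft in the whole library in all 3 experiments. For the 6 genes that fell the median ratio was 1.72.

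Signals of other cell types moved beside these genes. The summed level of 10 Müller glia genes in amacrine cells was 4105, 1481 and 2489 CPM over the graft and 2135, 511 and 2937 CPM in controls, higher than control in LG5 and RC726. Its whole-library level was 17811, 10438 and 16379 CPM over the graft and 13217, 6599 and 14001 CPM in controls. Rod markers summed to 2872, 644 and 1029 CPM over the graft and 3623, 752 and 558 CPM in controls. Microglia markers summed to 154 CPM in the LG5 over-graft library and at most 12.9 CPM in the other 5, with P2RY12 at 0 in all 6. The 7 T and NK cell markers were all at 0 in 5 libraries. The part of free RNA, glia or rods in the rises was not tested. With cells limited to 1 rod gene UMI, 0 genes passed and 537 had an unadjusted p under 0.05, and SFRP2 changed by 0.12. With free RNA subtracted 1 gene passed, which was not among the 27. Many risers, among them VMO1, SFRP2, ADAMTS1, CP and ISG15, were not among the genes tested after that subtraction. With under 0.1% of UMIs on the glial genes 19 passed, of which 17 were among the 27. CARTPT changed by -1.43 to -1.01 over all 13 alternatives.

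**Figure D4:**
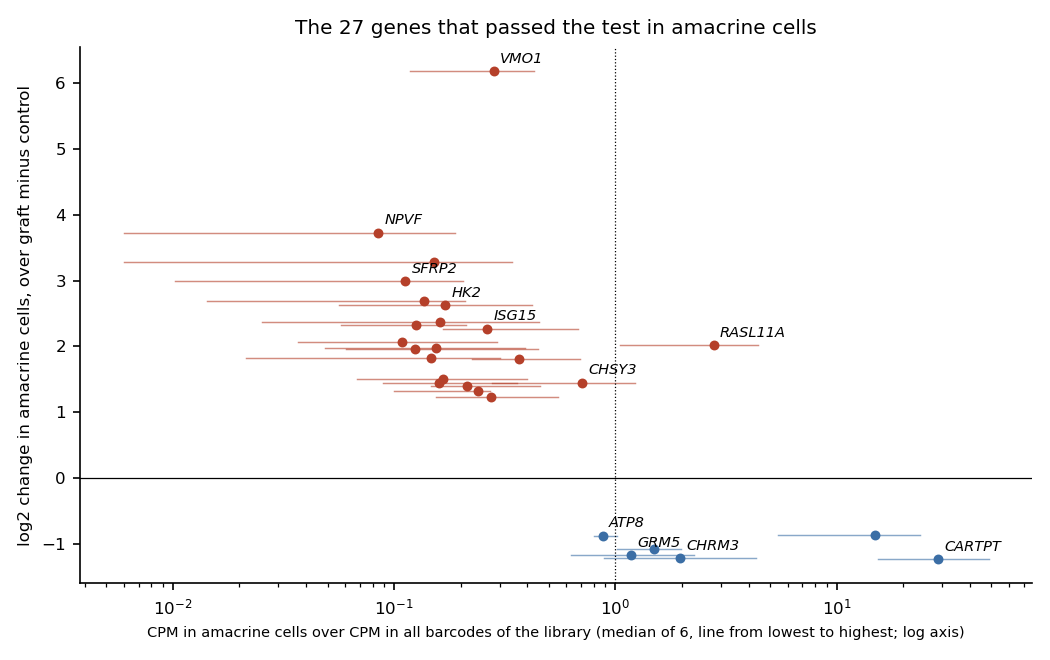
Log2 change over the graft in amacrine cells (vertical) against the ratio of amacrine CPM to whole-library CPM (horizontal, log axis) for the 27 genes that passed. Points are medians of 6 libraries and lines run from the lowest to the highest, with a ratio of 0 drawn at the left end of the line. CARTPT lies between 15.3 and 48.6 and RASL11A between 1.04 and 4.402, while VMO1 and SFRP2 lie below 1 in all 6 libraries.

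Of the genes of amacrine identity and transmission, CARTPT and GRM5 passed. With 0.245% of all genes passing, a count of 0 in a list of this size is near the share over all genes. None of 19 identity genes, 7 GABA metabolism genes, 7 glycine metabolism genes, 16 GABA and glycine receptor genes or 27 transmitter release genes passed. PAX6 changed by -0.02 ± 0.14 on the log2 scale. Of 12 peptide genes, CARTPT alone passed, and of 20 glutamate receptor genes, GRM5 alone. None of 17 immediate early genes, 12 heat shock genes, 20 axon injury genes, 18 genes of endoplasmic reticulum stress, 11 genes of apoptosis and survival, 38 respiratory chain genes or 72 ribosomal protein genes passed. Among single stress genes, HSP90AA1 changed by 0.42, STAT3 by 0.36, JUNB by 0.25, ATF3 by 0.15 and NFKBIA by -0.03, none past the threshold.

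Interferon-stimulated genes, which cells switch on against viruses, were uneven. Of 20 tested, 17 had a positive change, with a median of 0.57 against 0.011 over all genes, and 2 passed: VMO1, which was on a list drawn up with results of these data known, and ISG15, a ubiquitin-like modifier. ISG15 had 273, 15.3 and 17.7 CPM over the graft and 32.7, 7.42 and 7.61 CPM in controls, a change of 2.27 ± 0.38 (adjusted p = 0.037) that missed the threshold when any 1 experiment was left out. MX1, a GTPase that blocks viral replication, had 72.3, 22.6 and 40.7 CPM over the graft and 47.0, 17.3 and 12.9 CPM in controls, a change of 0.91 ± 0.28 (adjusted p = 0.42). B2M changed by 0.58, and IRF7 did not pass the filter on low counts. Of 13 genes of MHC class I antigen presentation, none passed, with a median of 0.20.

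The same genes moved more in rods. Over the 20 interferon genes tested in all 3 classes, the median log2 change was 0.57 in amacrine cells, 1.26 in ON bipolar cells and 2.01 in rods, and 17 of 20 were larger in rods than in amacrine cells. MX1 in rods had 204, 57.6 and 61.4 CPM over the graft and 3.72, 5.82 and 9.96 CPM in controls. The difference between the classes was tested on 12 sums with a term for each library: 737 of 17256 genes differed (4.27%), 488 with a higher change in amacrine cells (2.83%) and 249 with a lower one (1.44%). Of 45 interferon genes tested, 15 had a lower change in amacrine cells and 2 a higher one, IFI6 and DTX3L. DTX3L and, among the 15, IFI44L, OAS3 and IFGGB2 were too sparse to test in amacrine cells alone. Of 18 MHC class I genes, 8 had a lower change and none a higher one.

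MX1 differed by -2.91 ± 0.38 (edgeR, adjusted p = 4.2e-07), RNF213, a large ubiquitin ligase, by -2.67 ± 0.26, and TAPBP, which helps load peptides onto MHC class I, by -2.04 ± 0.28. The p-values of this test rest mostly on a trend of spread over all genes, and little on a gene's own spread. B2M, the invariant chain of class I molecules, differed by -1.16 ± 0.28 (adjusted p = 0.0074), a call that was lost without RC726. ISG15 differed by -1.47 ± 0.32. IFI6 ran the other way, by 1.04 ± 0.25, with a change of 0.12 ± 0.23 in amacrine cells and -0.85 ± 0.24 in rods. The count was 396 to 584 with 1 experiment left out, and 3 with a library term and no class-by-experiment term.

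**Figure D5:**
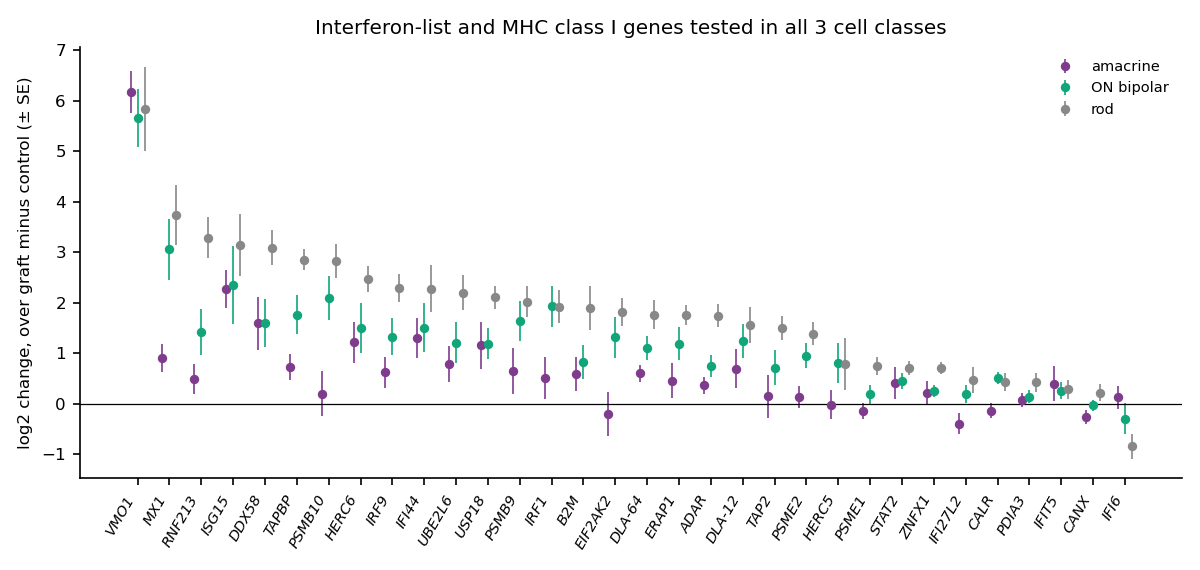
Log2 change over graft against control, with its SE, of 19 interferon-list and 13 MHC class I genes in amacrine cells, ON bipolar cells and rods, ordered by the change in rods. The rod point lies above the amacrine point for 16 of the 19 and for 13 of the 13.

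MX1 also differed between the classes in the control punches. In control libraries MX1 had 47.0, 17.3 and 12.9 CPM in amacrine cells, against 2.502, 2.10 and 4.496 CPM in ON bipolar cells and 3.72, 5.82 and 9.96 CPM in rods. It was detected in 13.4%, 11.1% and 12.5% of control amacrine cells, against at most 1.82% of ON bipolar cells and 1.06% of rods, which were shallower. In a comparison added after these values were seen, MX1 was higher in control amacrine cells than in ON bipolar cells by 2.58 ± 0.56 (edgeR, adjusted p = 0.012), where 34.1% of 13820 genes differed. Against rods the difference was 1.59 ± 0.60 (adjusted p = 0.063), where 44.8% of 15090 genes differed. Without LG5 the difference from ON bipolar cells missed the threshold (adjusted p = 0.054).

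Of 360 control amacrine cells, 46 held an MX1 UMI, and 30 of these were in the GABA subset. MX1 was found in 20.6%, 24.1% and 21.3% of control GABA cells and in 0 of 61 control glycine cells, which were fewer and shallower. A count of 0 allows up to 4.92% of these cells with an MX1 UMI and sets no limit on cells that express it. Over all 6 libraries 65 of 273 GABA cells and 8 of 134 glycine cells held an MX1 UMI. In the fit without the filter on low counts GABA cells were higher by 2.02 ± 0.49 (edgeR, adjusted p = 0.0011), in 6 of 6 libraries. The p-value of that fit does not measure the spread of MX1 itself between libraries.

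Other genes also changed differently in amacrine cells and rods. THY1, a surface glycoprotein of neurons that also marks ganglion cells, had 134, 46.9 and 66.3 CPM over the graft and 125, 55.7 and 41.1 CPM in controls in amacrine cells. In rods it had 222, 74.1 and 123 CPM over the graft and 12.3, 8.16 and 2.83 CPM in controls, and the difference was -3.97 ± 0.25. Rods over the graft lay above amacrine cells in all 3 experiments, while the amacrine values overlapped between punches. CPLX3, a complexin of amacrine and photoreceptor synapses, had 1172, 443 and 369 CPM over the graft and 1058.5, 604 and 653 CPM in controls in amacrine cells. In rods it had 54.0, 66.0 and 82.9 CPM over the graft and 33.7, 21.5 and 24.2 CPM in controls, and the difference was -1.62 ± 0.22.

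Against ON bipolar cells, 119 of 15597 genes differed in their change (0.763%), 29 with a higher change in amacrine cells and 90 with a lower one. CHRM3 in ON bipolar cells had 32.5, 365 and 357 CPM over the graft and 33.7, 326 and 334 CPM in controls, and the difference was -1.26 ± 0.19 (edgeR, adjusted p = 0.0064). GRM5 in ON bipolar cells had 75.9, 891 and 1042 CPM over the graft and 88.0, 863 and 668 CPM in controls, a difference of -1.35 ± 0.23 (adjusted p = 0.015). The fall of both genes in amacrine cells thus differed from the values in a neighbouring neuron that carries them at a higher level. THY1 differed by -3.16 ± 0.27, and none of 38 interferon genes passed.

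CARTPT differed by -2.90 ± 0.50 (adjusted p = 0.017), but ON bipolar cells held 93 UMIs over the graft and 7 in control in LG5 and at most 4 elsewhere, and the call was lost without LG5. With a library term and no class-by-experiment term 0 genes passed (814 with an unadjusted p under 0.05 in edgeR), and the count was 29 to 408 with 1 experiment left out.

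GABA and glycine cells differed in their change at 25 of 5672 genes (0.441%), 15 with a higher change in GABA cells and 10 with a lower one. PLCB1, a phospholipase that acts downstream of G protein-coupled receptors, had 128, 541 and 518 CPM over the graft and 204, 288 and 352 CPM in controls in GABA cells. In glycine cells it had 30.3, 34.1 and 27.4 CPM over the graft and 168, 155 and 159 CPM in controls, with no overlap. These glycine values rest on 3, 7 and 5 UMIs over the graft and 14, 19 and 30 UMIs in controls. The difference was 2.80 ± 0.46 (edgeR, adjusted p = 0.00043). In this test too, p-values rest mostly on a trend of spread over all genes.

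NEFM, the medium neurofilament subunit and a ganglion cell marker, had 74.4, 83.3 and 134 CPM over the graft and 204, 29.2 and 75.9 CPM in controls in GABA cells, and 1435, 107 and 65.7 CPM over the graft and 335, 16.3 and 10.6 CPM in controls in glycine cells. The difference was -2.91 ± 0.53 (adjusted p = 0.0013). NPY differed by 4.05 ± 0.80 and RPH3A by -2.35 ± 0.44. STMN2, a tubulin regulator of growing axons, differed by -2.94 ± 0.63, from a glycine level of 1071 CPM in the LG5 over-graft library against 11.98 to 32.8 CPM in the other 5. In that LG5 library the ganglion cell markers summed to 4649 CPM in the glycine subset, against 65.1 to 755 CPM elsewhere, and their part was not tested. All 5 named genes missed the threshold without LG5, and 0 genes passed with a library term and no subset-by-experiment term (183 with an unadjusted p under 0.05 in edgeR).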

How the data were processed

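Counts were the deposited unit: raw UMI counts per gene and barcode in 6 libraries, made with Cell Ranger 6.0.2 (both LG5 libraries), 7.0.0 (RC726 control) and 7.1.0 (the other 3), per the file headers. Which genome build was used, how introns were counted and whether human graft reads were separated was not given in the sources used here. Of 34981 gene names, 33364 matched a RefSeq symbol.

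Barcodes with at least 300 genes were kept, and members were picked by the rule stated in the report. Scrublet's automatic threshold called at most 2 doublets in a library, so doublets stayed in and removal of the 6% with the highest scores was an alternative. ON bipolar cells and rods were picked by marker UMIs in the same way.

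UMIs were summed per library and class and tested with edgeR 4.0.16 in R 4.3.3 (TMM, filterByExpr, quasi-likelihood F test, Benjamini-Hochberg adjustment over all tested genes, threshold 0.05), with DESeq2 1.42.0 as an alternative. The graft test had the experiment as a block, the subset test the library, and tests of differences had library and class-by-experiment terms. Both punches of an experiment came from the same retina, per the series' design text. Deviations from the group means of same-experiment libraries correlated at 0.735 to 0.908, against -0.837 to 0.658 between experiments. Between RC726 and RC724 the values were 0.643 and 0.658, near the 0.735 and 0.75 within each. The correlations therefore mostly set LG5 apart and say little on the pairing of punches. Nothing else says what the experiments share, so p-values refer to the spread between these libraries only. edgeR also draws each gene's spread toward a trend over all genes, with a weight in prior degrees of freedom. That weight was 9.14 in the graft test, 9.69 in the subset test and 12.4 for amacrine minus ON bipolar. It was 49.3 for GABA minus glycine and 58.1 for amacrine minus rod, where p-values rest mostly on the trend and little on a gene's own spread. Free RNA was estimated per library from the ratio of rod genes in amacrine cells to those in all barcodes, and subtracted as an alternative. Shares were compared with Wilson intervals at 95% and an exact sign-flip test, and thinning was to 1000 UMIs. Python 3.11.15, scanpy 1.11.5 and matplotlib 3.10.9 were used. On simulated counts the graft test recovered 45.5%, 86.6% and 94% of genes changed by 1, 2 and 3 on the log2 scale. The subset test recovered 77.3%, 70.1% and 70.1%. Recovery was 9.09%, 62.7% and 86.6% for GABA minus glycine differences in the change. It was 33.3%, 64.2% and 85.1% for amacrine minus ON bipolar and 27.3%, 59.7% and 68.7% for amacrine minus rod. Unchanged genes called numbered 4, 10, 6, 21 and 2 in these tests, in that order.

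Named genes were the 12 largest in each direction with an adjusted p under 0.05, 1 direction in every experiment or library, a gene symbol and a mean of 20 CPM or more in the higher group. Also named were members of the lists with an adjusted p under 0.05, whatever their direction in single libraries, and 14 genes given in any case, of which some are not reported here. Genes below the filter on low counts, and KCNC2, CPLX2, THY1, CPLX3, NEFM, PLCB1 and RNF213, were singled out after their values were seen, as were the comparisons of control classes and the stricter glial limit. The members and lists were chosen with earlier results of these data known.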

Additional observations from a re-analysis of the deposited data

Results flagged for a closer look

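In 3 tests of whether the change over the graft differed between cell groups, some genes passed the threshold. With a library term and no class-by-experiment term the counts were 0 (GABA minus glycine), 0 (amacrine minus ON bipolar) and 3 (amacrine minus rod). GABA and glycine cells differed at 25 genes (0.441% of those tested). Among them NPY differed by 4.05, PLCB1 by 2.80, NEFM by -2.91, STMN2 by -2.94 and RPH3A by -2.35 (log2, GABA minus glycine, edgeR). All 5 missed the threshold without LG5. In the LG5 over-graft glycine subset, ganglion cell markers, NEFM among them, summed to 4649 CPM, and their part was not tested. NPY had 27, 43 and 24 UMIs over the graft and 17, 0 and 0 UMIs in controls in GABA cells, and 2, 76 and 42 UMIs over the graft and 5, 3 and 43 UMIs in controls in glycine cells. These UMIs came from few cells, 11 of 273 GABA cells and 19 of 134 glycine cells over all 6 libraries.

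Amacrine cells and ON bipolar cells differed at 119 genes. CARTPT differed by -2.90, CHRM3 by -1.26, GRM5 by -1.35, THY1 by -3.16, GABRA2 by -1.65, KCND2 by -3.11 and SV2B, a synaptic vesicle protein, by 1.31 (log2, amacrine minus ON bipolar). GABRA2 had 192, 463 and 470 CPM over the graft and 225, 434 and 439 CPM in controls in amacrine cells, and in ON bipolar cells 10.7, 1.86 and 2.42 CPM over the graft and 2.12, 1.14 and 0.951 CPM in controls. The ON bipolar values of RC726 and RC724 rest on 12 and 20 UMIs over the graft and 6 and 11 UMIs in controls. KCND2 was also sparse in ON bipolar cells, with 19, 109 and 98 UMIs over the graft and 11, 5 and 15 UMIs in controls. In amacrine cells KCND2 had 31.0, 162.5 and 300 CPM over the graft and 64.0, 131 and 464 CPM in controls, with no single direction. GABRA2 missed the threshold without LG5, and SV2B without LG5 and without RC726.

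Amacrine cells and rods differed at 737 genes. MX1 differed by -2.91, RNF213 by -2.67, B2M by -1.16, TAPBP by -2.04, THY1 by -3.97 and CPLX3 by -1.62 (log2, amacrine minus rod).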

How the results depend on the processing

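Of the 27 genes that changed over the graft, none remained without the block for experiment (0 called, 63 with an unadjusted p under 0.05), with at most 1 rod gene UMI (0 called, 537 under 0.05) or with free RNA subtracted (1 called). The risers VMO1, NPVF, SFRP2, HK2, ADAMTS1, CP, ISG15, CRB1, TCF7L2, SFRP1 and MAK were not among the genes tested after that subtraction. Nor were LOC119869349 and LOC477072. The count was 8 in DESeq2, 256 without the filter on low counts, 4 with at most 20% mitochondrial UMIs, 52 with at least 5 marker UMIs, 19 with the glial limit (17 of the 27), and 2 to 99 with 1 experiment left out. VMO1 lost its call without the block, kept it in the other 10 alternatives that gave it a value, and was not tested under the rod limit or with free RNA subtracted. The 695 genes that differed between GABA and glycine cells became 159 without the block, 1117 with the subsets split at 1 UMI, 1539 without the filter, and 273 to 1128 with 1 experiment left out. Differences in the change over the graft with a library term only fell to 0 (GABA minus glycine), 0 (amacrine minus ON bipolar) and 3 (amacrine minus rod). With 1 experiment left out they were 1 to 53, 29 to 408 and 396 to 584, and RLE size factors gave 15 for GABA minus glycine. The control comparisons gave 3206 to 4515 genes against ON bipolar cells and 5121 to 5796 against rods. The log2 ratio of amacrine shares ran from -0.0446 (without LG5) to 0.259, and the glycine share difference was -4.67 points after thinning, on few cells. Signs turned for uncalled changes and for IMPG2, a called rise of 1.44. With 1 experiment left out, PAX6 ran from -0.0753 to 0.0642, NFKBIA from -0.289 to 0.593, JUNB from -0.0594 to 0.809, ATF3 from -0.569 to 1.32 and IFI6 from -0.180 to 0.357. PAX6 turned to 0.0642 (without RC724), 0.0322 (rod limit), 0.0244 (doublets removed), 0.125 (free RNA) and 0.0153 (glial limit). STAT3 turned to -0.0862 and IMPG2 to -1.14 with free RNA subtracted. NFKBIA turned to 0.0835 (DESeq2), 0.593 (without RC724) and 0.813 (at least 5 marker UMIs). JUNB turned to -0.0594 (without RC726) and -1.56 (free RNA), ATF3 to -0.569 (without LG5), -0.0514 (without RC726), -0.442 (doublets removed) and -0.529 (glial limit), and IFI6 to -0.180 (without LG5) and -0.0139 (at least 5 marker UMIs). The cause was not tested, and depth limits the LG5 cells most.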
